A study of Mus musculus with 6 samples.

Results

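The cadherin superfamily was described across 3 sorted fractions of a mouse embryonic stem cell (ESC) culture. Its members were the rows of the count table whose symbol names a cadherin (Cdh, with the cadherin-related Cdhr genes), protocadherin (Pcdh), desmoglein (Dsg), desmocollin (Dsc), Celsr, Dchs or Fat gene, without Cdh5. They numbered 81 rows with 80 symbols (Pcdh15 has 2 rows) of 38561 genes. The ESCs (strain 129X1/SvJ x 129S1/Sv, passages 13 to 17) were grown without feeder cells on gelatin with serum replacement and leukemia inhibitory factor, and the labels name no engineered allele and no agent that set the fractions apart. Antibodies against PECAM1 and PDGFRa served to sort the living culture, and RNA of 100000 sorted events per fraction was amplified and sequenced. The fractions are called PDGFRa-only (PECAM1minPDGFRaplus in the labels), double-positive (PECAM1plusPDGFRaplus) and PECAM1-only (PECAM1plusPDGFRamin). Each had 2 libraries, Exp1 and Exp2 in the labels and replicates 1 and 2 here. The labels do not say whether these came from separate cultures, so each p measures the spread between these libraries only, which may be technical.

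Cadherins are calcium-dependent adhesion proteins whose extracellular repeats bind those of a neighbouring cell. Classical cadherins of type I and type II bind catenins inside the cell and through them actin; desmogleins and desmocollins join intermediate filaments at desmosomes; protocadherins do not use the catenins of classical cadherins, and many of them lie in gene clusters. Fat, Dchs and Celsr proteins are very large members with roles in planar polarity. Cdh1 (E-cadherin) holds ESC colonies and the early embryo together, and the epiblast and the primitive endoderm, the tissues to which the sorting proteins relate, are both epithelia that express it.

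The 5′ ends of 4 members are shown because these genes had clear differences between the fractions in opposite directions and because their RefSeq start lay at or close to the start of their annotated gene. Cdh6 (chr15:13173626-13173925, minus strand) and Pcdh19 (chrX:133688944-133689243, minus strand) were higher with PDGFRa. Cdhr1 (chr14:37098298-37098597, minus strand) and Celsr2 (chr3:108415530-108415829, minus strand) were higher in the PECAM1-only fraction. Each window runs from 250 bases before to 50 bases after the RefSeq start (GRCm38.p6) and is written 5′ to 3′ on the strand of the gene. Capitals mark the hexamer CACCTG on either strand (CACCTG or CAGGTG), the core of the E-box to which repressors of Cdh1 such as Snai1 and Zeb1 can bind.
Cdh6: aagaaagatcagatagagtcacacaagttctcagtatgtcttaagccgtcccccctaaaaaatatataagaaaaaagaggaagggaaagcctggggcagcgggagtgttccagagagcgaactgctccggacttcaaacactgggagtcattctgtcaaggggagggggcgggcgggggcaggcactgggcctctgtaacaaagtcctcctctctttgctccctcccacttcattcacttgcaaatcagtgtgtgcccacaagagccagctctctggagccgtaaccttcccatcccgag
Pcdh19: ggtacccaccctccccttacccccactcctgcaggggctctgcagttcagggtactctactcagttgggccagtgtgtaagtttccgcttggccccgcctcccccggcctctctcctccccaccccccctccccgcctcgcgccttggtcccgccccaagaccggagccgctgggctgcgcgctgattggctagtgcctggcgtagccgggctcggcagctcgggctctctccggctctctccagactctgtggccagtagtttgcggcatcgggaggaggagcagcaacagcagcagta
Cdhr1: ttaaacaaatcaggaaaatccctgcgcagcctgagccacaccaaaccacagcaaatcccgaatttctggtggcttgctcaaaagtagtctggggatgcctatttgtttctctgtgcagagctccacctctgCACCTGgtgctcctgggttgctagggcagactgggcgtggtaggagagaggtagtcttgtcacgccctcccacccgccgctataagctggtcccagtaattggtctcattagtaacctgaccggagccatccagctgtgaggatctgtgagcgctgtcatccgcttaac
Celsr2: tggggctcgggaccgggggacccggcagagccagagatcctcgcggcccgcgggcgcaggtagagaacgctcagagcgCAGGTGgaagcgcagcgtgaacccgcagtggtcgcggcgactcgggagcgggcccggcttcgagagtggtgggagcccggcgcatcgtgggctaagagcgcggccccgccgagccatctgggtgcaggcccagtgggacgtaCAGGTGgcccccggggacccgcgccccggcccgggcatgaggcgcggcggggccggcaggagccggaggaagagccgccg
The hexamer stood 119 bases before the start of Cdhr1 and 172 and 30 bases before the start of Celsr2, and was not in the windows of Cdh6 and Pcdh19. It was in 20.2% of all 32851 RefSeq promoter windows of this length. A GATA motif (AGATAA or TGATAA, or their complements TTATCT and TTATCA) was in 18.6% of all windows and in none of these 4. Over the windows of all 9 tested members in the table, the E-box hexamer was in those of Cdhr1, Celsr2 and Fat1. That of Fat1 (44949958 to 44950257) is not shown because it lies inside the annotated gene, which starts at 44935447. The hexamer was absent from the windows of Cdh18 and Celsr3, which were also called lower in PDGFRa-only than in PECAM1-only cells. The Cdh18 window (23036213 to 23036512) lies far inside its annotated gene too, which starts at 22549022, so it may miss the 5′ end. It was absent as well from those of Cdh15, Cdh24, Cdh6 and Pcdh19, so the printed windows do not stand for all 9. These matches describe the letters of the windows. The table held 33 member symbols.

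The libraries held 4809661 to 7273669 counts. Levels are CPM, read counts normalised to the TMM-scaled library size, where TMM trims extreme genes before libraries are compared. A floor of 3 counts, the limit that a count of 0 allows, stood at 0.437 to 0.673 CPM per library. Floors and intervals cover counting error only, since the RNA was amplified and reads carried no stated molecular identifier, so that reads may be copies of 1 molecule. In these bulk samples, fewer cells of a type and less RNA per cell cannot be told apart. Marker levels went with the gates, of which PDGFRa itself was one. The summed level of 5 primitive endoderm markers (Gata4, Gata6, Sox17, Dab2 and Pdgfra) was 4225 to 4489 CPM in PDGFRa-only, 3221 to 3368 in double-positive and 13.98 to 17.9 in PECAM1-only libraries, and that of 5 ESC markers (Pou5f1, Sox2, Nanog, Zfp42 and Esrrb) was 107 to 149, 281 to 357 and 880 to 905 CPM. Of 5 markers of endothelium and blood, which also carry PECAM1, Ptprc, Erg and Emcn had 0 counts in all 6 libraries and Tie1 had 2, so that the sum of 9.43 to 10.4 CPM in PDGFRa-only, 10.01 to 10.4 in double-positive and 12.4 to 13.8 in PECAM1-only libraries was nearly all Tek. In the same order, 5 fibroblast markers summed to 1.80 to 4.83, 3.30 to 5.01 and 1.57 to 1.75 CPM (Twist2 at 0), and 5 trophoblast markers to 1.06 to 1.12, 2.05 to 2.35 and 3.20 to 4.23 CPM. For 5 neural markers, of which Neurog2 had 0 counts, it was 5.14 to 5.16 CPM in PDGFRa-only, 15.9 to 23.3 in double-positive and 46.0 to 47.7 in PECAM1-only libraries, and the part of such cells in the results was not tested.

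Of the 81 members, 67 had at least 1 count and 23 passed the filter on low counts and were tested. A member that passed through the fraction in which it was high had to differ, so the counts below describe the tested members only. In PDGFRa-only against PECAM1-only cells, 11 were higher and 9 lower at an adjusted p below 0.05 (edgeR quasi-likelihood test, Benjamini-Hochberg over all 13909 genes), beside 30.1% of all tested genes higher and 28.8% lower (59.0% in either direction). All libraries of the first fraction lay above those of the second for 12 members and below them for 9, beside 39.0% and 38.9% of all genes. Their median log2 fold change was 0.49, beside 0.01 over all genes. By kind, both desmosomal cadherins tested and 6 of 7 protocadherins tested were higher in PDGFRa-only cells, the 4 Fat and Celsr genes tested were lower, and the 9 classical cadherins split into 3 higher, 3 lower and 3 that did not pass.

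**Figure D1:**
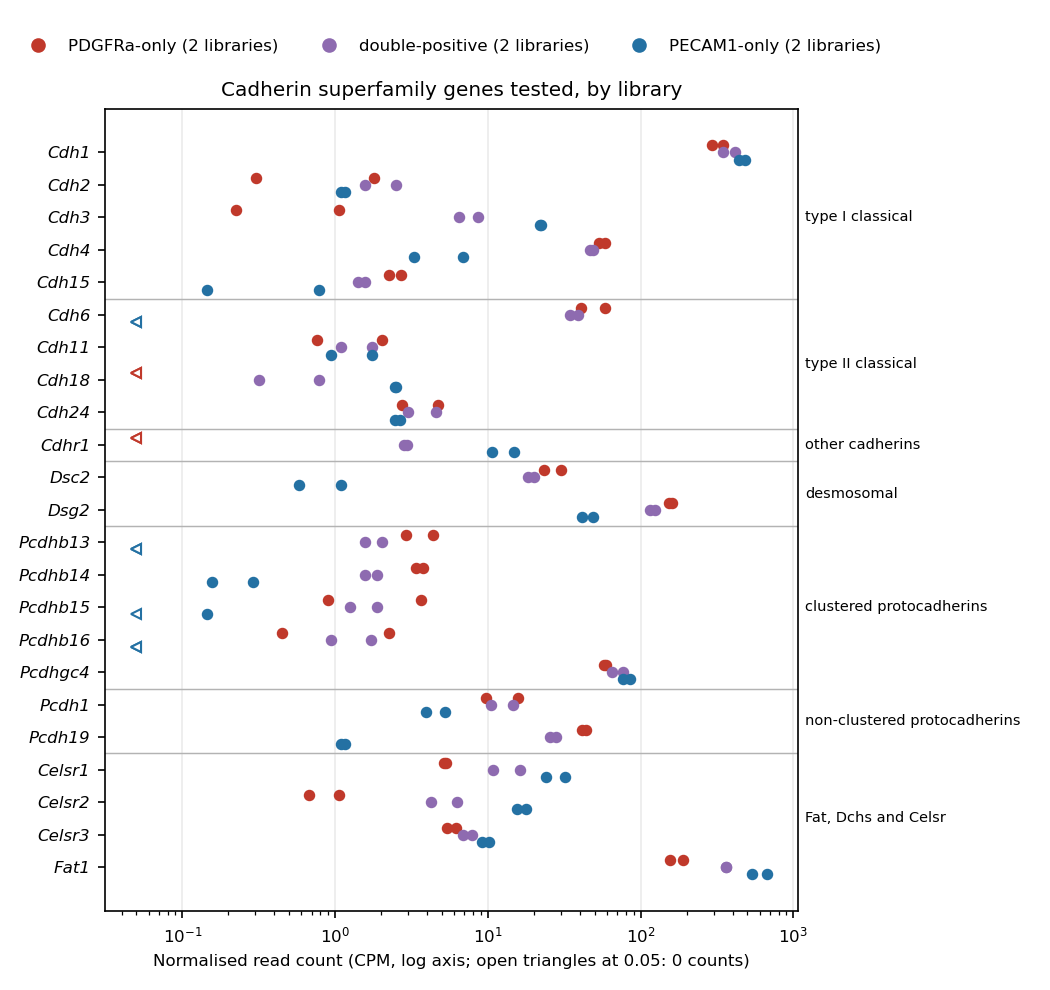
Normalised read count (CPM, log axis) of the 23 tested cadherin superfamily genes in each of the 6 libraries, grouped by kind, with 1 point per library and open triangles at 0.05 for 0 counts. Dsc2, Dsg2, Cdh4, Cdh6 and Pcdh19 lie to the right in PDGFRa-only and double-positive libraries, while Cdh3, Cdhr1, Celsr2 and Fat1 lie to the right in PECAM1-only libraries and fall in between in double-positive libraries.

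Cdh1 (ENSMUSG00000000303, GRCm38 chromosome 8, 106603351 to 106670246), the E-cadherin gene, was among the highest members in every library. It had 346 and 294 CPM in the PDGFRa-only libraries (replicates 1 and 2), 416 and 343 CPM in the double-positive and 444 and 482 CPM in the PECAM1-only libraries. The PECAM1-only libraries were the highest and did not overlap with the PDGFRa-only libraries, but the difference was small, with a log2 fold change of -0.53 (SE 0.16, adjusted p = 0.00719, edgeR). This call was lost without PECAM1-only replicate 2 (-0.46, adjusted p = 0.0635). Between double-positive and PECAM1-only cells the log2 fold change was -0.29 (SE 0.16, adjusted p = 0.170). Under upper-quartile scaling it was -0.45 and did pass (adjusted p = 0.0252), as it did at -0.50 when only library size was used (adjusted p = 0.0150).

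Cdh3 (P-cadherin, ENSMUSG00000061048, chromosome 8, 106510891 to 106557297), the neighbour of Cdh1 on the chromosome, had a far larger difference. Its level was 22.4 and 21.8 CPM in PECAM1-only, 6.45 and 8.61 CPM in double-positive and 0.224 and 1.06 CPM in PDGFRa-only libraries. The 3 fractions did not overlap, and each step was called. The log2 fold change was -4.91 (SE 0.41, adjusted p = 1.58e-09) between the single-positive fractions, or -6.50 without PDGFRa-only replicate 2. It was -1.55 (SE 0.27, adjusted p = 0.000117) from PECAM1-only to double-positive and -3.36 (SE 0.46, adjusted p = 2.44e-05) from there to PDGFRa-only, the latter -4.95 without PDGFRa-only replicate 2. The lowest fraction rests on 8 counts.

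Cdh4 (R-cadherin, ENSMUSG00000000305, chromosome 2, 179442431 to 179899373) went the other way. Its level was 53.4 and 58.3 CPM in PDGFRa-only, 48.9 and 46.6 CPM in double-positive and 6.84 and 3.29 CPM in PECAM1-only libraries. Both PDGFRa-positive fractions stood apart from the PECAM1-only libraries, by 3.45 (SE 0.26, adjusted p = 2.95e-10) and 3.22 (SE 0.26, adjusted p = 2.03e-09) on the log2 scale. These were 4.09 and 3.87 without PECAM1-only replicate 1. Between the PDGFRa-positive fractions Cdh4 had a log2 fold change of 0.23 (SE 0.21, adjusted p = 0.495).

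The other type I genes were low. Cdh15 (M-cadherin, a cadherin of muscle precursors) had 2.69 and 2.27 CPM in PDGFRa-only, 1.42 and 1.56 CPM in double-positive and 0.146 and 0.784 CPM in PECAM1-only libraries. It was higher in the PDGFRa-only fraction by 2.38 on the log2 scale (SE 0.67, adjusted p = 0.00444), a call that was lost without PECAM1-only replicate 1 (1.63, adjusted p = 0.0903) and stood at 3.91 without replicate 2. Cdh2 (N-cadherin), which takes the place of Cdh1 in many epithelial-mesenchymal transitions, had 10, 26 and 15 counts over the PDGFRa-only, double-positive and PECAM1-only fractions. It passed in no comparison, with a log2 fold change of -0.28 between the single-positive fractions (SE 0.72, adjusted p = 0.764). That value took either sign with 1 library left out, -1.84 without PDGFRa-only replicate 1 and 0.66 without replicate 2. Without PDGFRa-only replicate 1 it was lower in PDGFRa-only than in double-positive cells (-2.68, adjusted p = 0.0377).

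Among 12 type II genes, 4 were tested. Cdh6 (K-cadherin, ENSMUSG00000039385, chromosome 15, 13028701 to 13173675), known from kidney and neural crest, had 40.9 and 58.5 CPM in PDGFRa-only and 34.3 and 39.1 CPM in double-positive libraries. It had 0 counts in both PECAM1-only libraries, so that it was at least 219-fold higher in PDGFRa-only (adjusted p = 2.26e-12, edgeR) and at least 162-fold higher in double-positive cells (adjusted p = 1.66e-11), against a floor of 3 counts over the fraction. The PDGFRa-positive fractions differed by 0.44 (SE 0.21, adjusted p = 0.154), or by 0.67 (adjusted p = 0.0276) without PDGFRa-only replicate 1. Cdh18, a neural cadherin, was the reverse, with 0 counts in the PDGFRa-only fraction, 0.315 and 0.782 CPM in double-positive and 2.47 and 2.51 CPM in PECAM1-only libraries. It was at least 9.20-fold lower in PDGFRa-only than in PECAM1-only cells (adjusted p = 8.67e-05). Its double-positive level was lower than the PECAM1-only level by a log2 fold change of -2.14 (adjusted p = 0.0107), a call lost without either PECAM1-only replicate (adjusted p = 0.0716 without replicate 1 and 0.0655 without replicate 2), without double-positive replicate 1 (-1.63, adjusted p = 0.122) and with DESeq2 (adjusted p = 0.104), and at -2.91 without double-positive replicate 2. Cdh11 and Cdh24, at 0.755 to 2.02 and 2.47 to 4.71 CPM over the 6 libraries, passed in no comparison.

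Per length of annotated exons, Cdh1 took most of the classical cadherin signal in every library. It held 92.7% ± 0.855 of the summed CPM per kb of the 17 classical genes in the PECAM1-only fraction, 84.9% ± 2.53 in the double-positive and 81.8% ± 2.94 in the PDGFRa-only fraction (SD, n = 2). The rest differed in identity. In PECAM1-only cells Cdh3 held 4.63% ± 0.320, against 0.649% ± 0.349 for Cdh4 and no count for Cdh6. In PDGFRa-only cells Cdh4 held 9.07% ± 1.28 and Cdh6 6.53% ± 2.14, against 0.178% ± 0.172 for Cdh3. Double-positive cells had all 3, with Cdh4 at 6.77% ± 0.479, Cdh6 at 4.21% ± 0.828 and Cdh3 at 1.79% ± 0.544. The summed level of the classical genes was 85.4 ± 6.84, 97.6 ± 10.2 and 109 ± 5.38 CPM per kb in PDGFRa-only, double-positive and PECAM1-only cells.

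**Figure D2:**
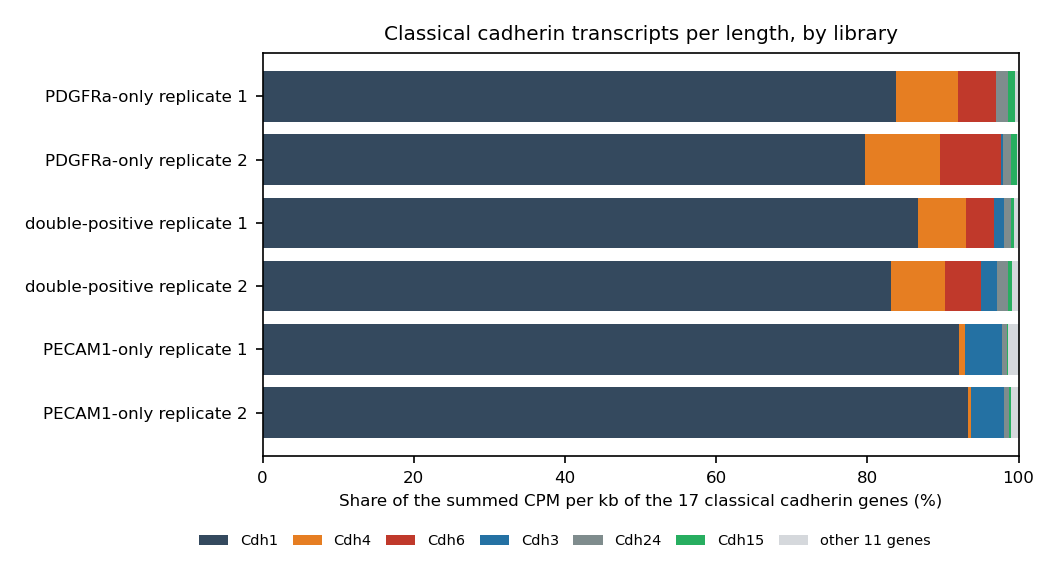
Share of each classical cadherin gene in the summed CPM per kb of the 17 classical genes (horizontal axis, percent), with 1 bar for each of the 6 libraries. Cdh1 fills 79.7% to 93.3% of every bar, with Cdh4 and Cdh6 next to it in PDGFRa-positive libraries and Cdh3 in PECAM1-only libraries.

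Only Dsg2 and Dsc2, the desmoglein and desmocollin of simple epithelia, were tested of 9 desmosomal genes, and both were called in both comparisons with PECAM1-only cells. Dsg2 (ENSMUSG00000044393, chromosome 18, 20558074 to 20604521) had 161 and 153 CPM in PDGFRa-only, 115 and 125 CPM in double-positive and 48.6 and 41.4 CPM in PECAM1-only libraries. Its log2 fold change against PECAM1-only cells was 1.80 (SE 0.17, adjusted p = 8.90e-09) for PDGFRa-only and 1.41 (SE 0.17, adjusted p = 7.18e-07) for double-positive cells. Dsc2 (ENSMUSG00000024331, chromosome 18, 20030633 to 20059554) had 30.1 and 23.4 CPM, 20.0 and 18.3 CPM, and 0.582 and 1.10 CPM in the same order. Its log2 fold changes were 4.97 (SE 0.35, adjusted p = 1.45e-10) and 4.49 (SE 0.36, adjusted p = 2.21e-09). For both genes the PDGFRa-only libraries lay above the double-positive ones, with differences that did not pass (Dsg2 0.39, adjusted p = 0.0984; Dsc2 0.47, adjusted p = 0.167). The desmosomal genes of stratified epithelium (Dsg1a, Dsg1b, Dsg1c, Dsg3, Dsg4, Dsc1 and Dsc3) had at most 4 counts over the 6 libraries, and 4 of them had 0. An antisense gene covers 3.99% of the Dsg2 exons, and the strand setting of the counting is not given in the sources used here.

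The beta protocadherins are a row of 22 genes on chromosome 18, each with its own promoter. Their 256 counts over the 6 libraries were spread over 14 genes, and 8 genes had 0. A run of neighbours, Pcdhb13 to Pcdhb17, held 225 of these counts (87.9%). They had 137 counts in the PDGFRa-only, 84 in the double-positive and 4 in the PECAM1-only fraction. The PDGFRa-only counts were uneven, 36 in replicate 1 and 101 in replicate 2. Pcdhb1 to Pcdhb12, to the 5′ side, had 5, 5 and 1 counts, and Pcdhb18 to Pcdhb22, to the 3′ side, had 6, 9 and 5, so that PECAM1-only cells had no more counts in the run than beside it. Beta genes share much of their sequence, so reads that fit several copies make the value of each single gene uncertain.

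**Figure D3:**
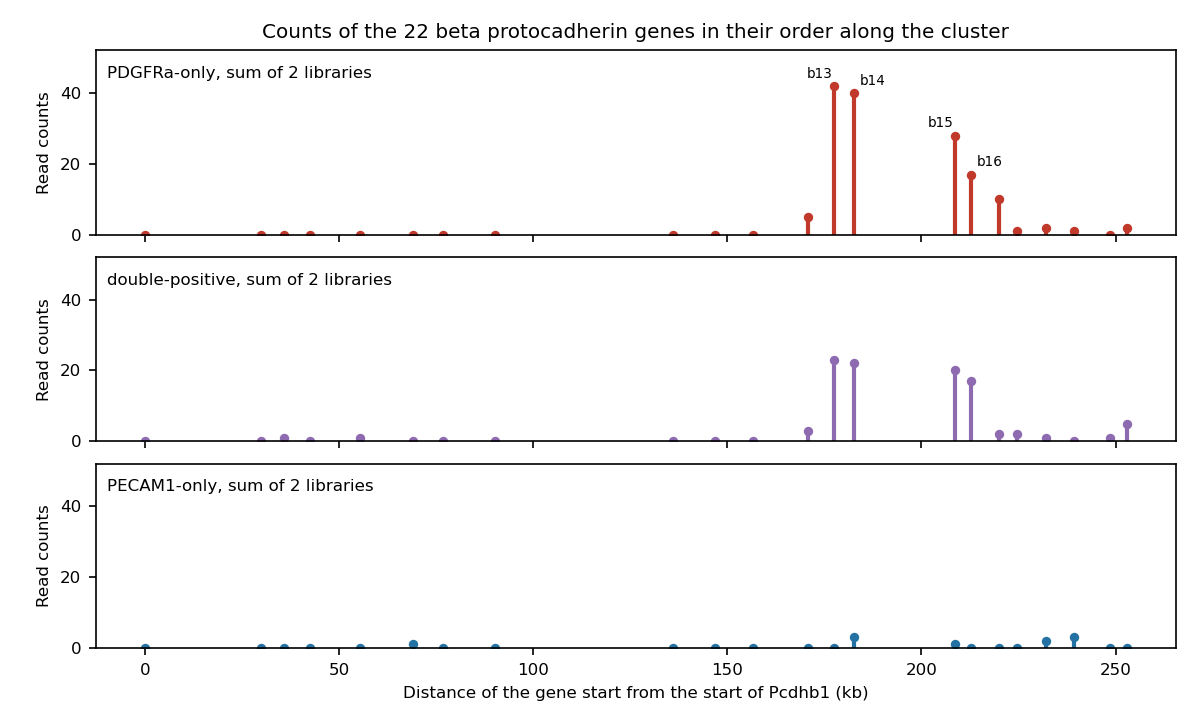
Read counts (vertical axis, sum of 2 libraries per fraction) of the 22 beta protocadherin genes against the distance of each gene start from that of Pcdhb1 (horizontal axis, kb), 1 panel per fraction. Counts stand at Pcdhb13 to Pcdhb17, 178 to 220 kb from the first gene, in PDGFRa-only and double-positive cells, with 4 counts there in PECAM1-only cells.

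The 4 beta genes tested were higher in both PDGFRa-positive fractions than in PECAM1-only cells. Pcdhb13 had 2.92 and 4.38 CPM in PDGFRa-only, 1.57 and 2.03 CPM in double-positive libraries and 0 counts in the PECAM1-only fraction, at least 16.1-fold (adjusted p = 5.96e-06) and 7.96-fold higher (adjusted p = 0.000320). Pcdhb14 had 3.37 and 3.78 CPM, 1.57 and 1.88 CPM, and 0.291 and 0.157 CPM (3 counts) in the PECAM1-only fraction, a ratio of 15.9 (exact 95% counting interval 5.08 to 80.6) for PDGFRa-only cells (adjusted p = 4.18e-05, edgeR). Its ratio for double-positive cells was 7.62 (2.29 to 39.8; adjusted p = 0.00453), lost without PECAM1-only replicate 2 (adjusted p = 0.0516). Both genes were low throughout, and higher in each of the 4 PDGFRa-positive libraries than in the PECAM1-only libraries.

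Pcdhb15 and Pcdhb16 differed more between the PDGFRa-only replicates. Pcdhb15 had 0.898 and 3.63 CPM there and 1.89 and 1.25 CPM in double-positive libraries, against 1 count in the PECAM1-only fraction, in replicate 1. The ratio was 33.5 (5.54 to 1370; adjusted p = 0.000480) for PDGFRa-only and 20.8 (3.32 to 862; adjusted p = 0.00537) for double-positive cells. For PDGFRa-only cells the ratio was 11.9 (1.18 to 586; adjusted p = 0.0431) without PDGFRa-only replicate 2 and 17.4 (2.87 to 710; adjusted p = 0.0113) without PECAM1-only replicate 2. Without PECAM1-only replicate 1 that fraction had 0 counts and gave no ratio. The double-positive call was lost without PECAM1-only replicate 2 (ratio 10.8, 1.72 to 447; adjusted p = 0.0616). Pcdhb16 had 0.449 and 2.27 CPM, 0.944 and 1.72 CPM and 0 counts. By mean level it was at least 5.99-fold (adjusted p = 0.00137, edgeR) and 5.88-fold higher (adjusted p = 0.00337). The first call was lost without PDGFRa-only replicate 2. The first bound rests on that replicate (15 counts), since PDGFRa-only replicate 1 (2 counts) lay below its own floor of 0.673 CPM.

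The alpha and gamma clusters, where many first exons share constant last exons, were each present as a single row. The gamma row, Pcdhgc4 (ENSMUSG00000023036, chromosome 18, 37815079 to 37841873), had 59.5 and 57.7 CPM in PDGFRa-only, 64.5 and 76.7 CPM in double-positive and 77.2 and 84.7 CPM in PECAM1-only libraries. The PDGFRa-only fraction was lower than the PECAM1-only fraction by a log2 fold change of -0.47 (SE 0.17, adjusted p = 0.0242), a call that did not hold in the absence of PDGFRa-only replicate 2 (adjusted p = 0.0526) or of either PECAM1-only library (0.0572 for the first and 0.148 for the second). In GENCODE M21, 21 other gamma genes share 2116 to 2119 bp of its 5596 bp of exons. Which first exons the authors counted in this row is not given in the sources used here, so it may stand for more than Pcdhgc4. The alpha row, Pcdhac1 in the table, had 17 counts over all libraries and was not tested. Its identifier stands for Pcdha11 in GENCODE M21, so which alpha genes it covers is uncertain as well.

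Of 13 rows of non-clustered protocadherins, 2 were tested and both were higher with PDGFRa. Pcdh19 (ENSMUSG00000051323, chromosome X, 133582860 to 133688987), which binds together with N-cadherin in neurons, had 43.8 and 41.1 CPM in PDGFRa-only, 25.6 and 27.9 CPM in double-positive and 1.16 and 1.10 CPM in PECAM1-only libraries. Its log2 fold change against PECAM1-only cells was 5.20 (SE 0.30, adjusted p = 4.11e-12) and 4.54 (SE 0.30, adjusted p = 1.18e-10). It was the 1 member called higher in PDGFRa-only than in double-positive cells (0.66, SE 0.20, adjusted p = 0.0242), beside 5.94% of all genes. That call was lost with DESeq2 (adjusted p = 0.0501), and when PDGFRa-only replicate 1 (0.0540), double-positive replicate 1 (0.206) or double-positive replicate 2 (0.106) was left out. Pcdh1, an epithelial protocadherin, had 9.65 and 15.7 CPM, 10.5 and 14.6 CPM, and 5.24 and 3.92 CPM in the same order. It was higher by 1.49 (SE 0.32, adjusted p = 0.000391) and 1.45 (SE 0.31, adjusted p = 0.000938) than in PECAM1-only cells, with overlapping PDGFRa-positive fractions.

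Of 8 Fat, Dchs and Celsr genes, 4 were tested, and Fat1, Celsr1 and Celsr2 were lower in both PDGFRa-positive fractions than in PECAM1-only cells. Fat1 (ENSMUSG00000070047, chromosome 8, 44935447 to 45052257), an atypical cadherin that acts on actin and on Hippo signalling, had 667 and 536 CPM in PECAM1-only, 360 and 361 CPM in double-positive and 154 and 188 CPM in PDGFRa-only libraries. No fraction overlapped with another. The log2 fold change was -1.81 (SE 0.17, adjusted p = 8.95e-09) between the single-positive fractions, -0.74 (SE 0.16, adjusted p = 0.00112) from PECAM1-only to double-positive and -1.07 (SE 0.17, adjusted p = 0.000103) from there to PDGFRa-only. Fat1 made up 45.8% ± 4.77 of all member counts in PECAM1-only, 31.8% ± 0.588 in double-positive and 18.4% ± 2.66 in PDGFRa-only cells (SD, n = 2), while the share of Cdh1 was 35.5% ± 3.83, 33.4% ± 3.95 and 34.3% ± 3.78. These are shares of counts, not set per length. An antisense gene covers 3.11% of the Fat1 exons.

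The 3 Celsr genes encode seven-pass cadherins of the core polarity pathway. Celsr1 had 24.2 and 32.0 CPM in PECAM1-only, 10.9 and 16.1 CPM in double-positive and 5.16 and 5.29 CPM in PDGFRa-only libraries. Its log2 fold change was -2.42 (SE 0.28, adjusted p = 2.21e-07) between the single-positive fractions. The steps were -1.05 (adjusted p = 0.00164), lost without double-positive replicate 1 (-0.78, adjusted p = 0.0644), and -1.36 (adjusted p = 0.00261), lost without double-positive replicate 2 (-1.05, adjusted p = 0.0642). Celsr2 (ENSMUSG00000068740, chromosome 3, 108390851 to 108415552) had 15.4 and 17.9 CPM, 4.25 and 6.26 CPM, and 0.673 and 1.06 CPM in the same order. Its log2 fold change was -4.18 (SE 0.40, adjusted p = 1.28e-08), with steps of -1.66 (adjusted p = 0.000107) and -2.52 (adjusted p = 0.000503). Celsr3 had 10.2 and 9.09 CPM, 7.87 and 6.88 CPM, and 5.39 and 6.19 CPM. Its log2 fold change of -0.72 (SE 0.29, adjusted p = 0.0387, edgeR) was lost without any 1 of the 6 libraries (adjusted p = 0.0576 to 0.179), with DESeq2 (0.103), without a filter on low counts (0.0754) and in a fit of the 2 fractions alone (0.0546). In double-positive against PECAM1-only cells Celsr3 did not pass (-0.39, adjusted p = 0.294). Dchs1, Fat2, Fat3 and Fat4 had 7 to 18 counts over the 6 libraries and were not tested.

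Cdhr1 (ENSMUSG00000021803, chromosome 14, 37077857 to 37098347), a cadherin-related gene best known from photoreceptors, was the 1 tested member of the group of other cadherins. It had 14.8 and 10.7 CPM in PECAM1-only and 2.83 and 2.97 CPM in double-positive libraries and 0 counts in the PDGFRa-only fraction. It was at least 47.1-fold lower in PDGFRa-only than in PECAM1-only cells (adjusted p = 7.63e-09) and at least 10.7-fold lower than in double-positive cells (adjusted p = 0.000127). The double-positive level was below the PECAM1-only level by a log2 fold change of -2.13 (SE 0.35, adjusted p = 5.43e-05).

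By mean level, double-positive cells lay between the other fractions for 20 of the 23 tested members, 11 of them highest in PDGFRa-only and 9 highest in PECAM1-only cells. The share of all tested genes with such an order was not counted, so the 20 cannot be read as a trait of cadherins. Against PECAM1-only cells, 10 members were higher and 6 lower in the double-positive fraction, beside 21.8% and 16.4% of all tested genes (38.2% in either direction). The libraries lay apart with double-positive above for 13 members and below for 9, beside 36.2% and 35.5% of all genes. Between PDGFRa-only and double-positive cells, 6 members were called (17.6% of all genes), and the libraries lay apart with PDGFRa-only above for 8 members and below for 8, beside 27.3% and 30.2%. Of the 11 members higher in PDGFRa-only than in PECAM1-only cells, 10 (90.9%) were also higher in double-positive cells, beside 70.9% of the 4193 genes so called. These shares stand at unlike effect sizes. The median log2 fold change of double-positive against PECAM1-only cells was 4.05 for the 11 and 0.98 for the genes so called. Only Pcdh19 (9.09%) was higher again in PDGFRa-only than in double-positive cells, beside 19.3%. The median log2 fold change of the 11 between these fractions was 0.47, beside 0.42 over the genes so called, so that the calls that did not pass do not show equal levels. Of the 9 lower members, 6 (66.7%) were also lower in double-positive cells, beside 55.8% of 4012 genes. The median log2 fold change of the 9 was -1.05 there and -1.36 from double-positive to PDGFRa-only. Over the genes so called it was -0.75 and -0.76. For Cdh3, Cdhr1, Celsr1, Celsr2 and Fat1 (55.6%) the further step from double-positive to PDGFRa-only was called too, beside 40.1%. These 5 were the members lower in PDGFRa-only than in double-positive cells, beside 11.7% of all genes. The comparisons share libraries. No member was called above or below both other fractions in the double-positive fraction by edgeR; by mean level, Cdh2, Cdh11 and Cdh24 were highest there and passed in no comparison.

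**Figure D4:**
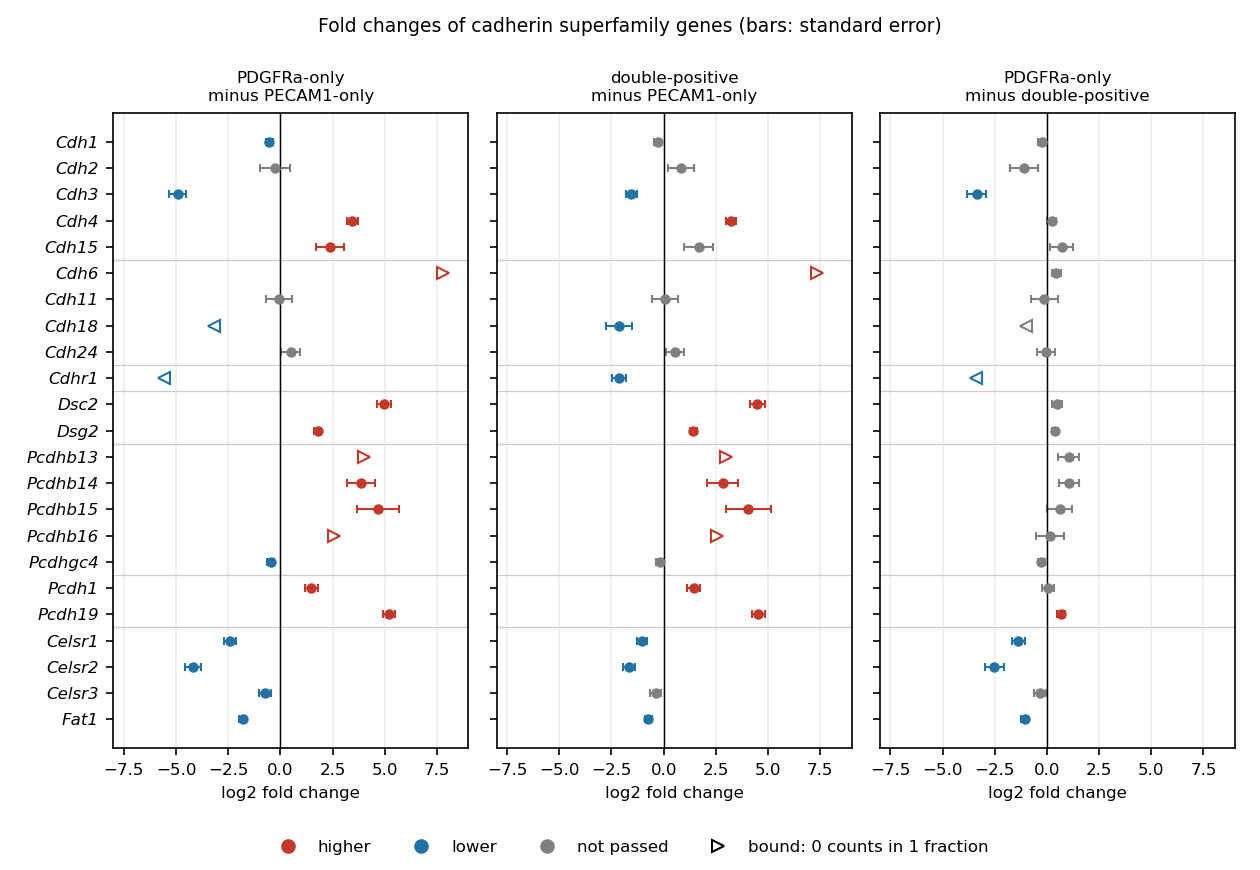
Log2 fold changes (horizontal axis, bars show the standard error) of the 23 tested members in the 3 comparisons, coloured by call, with open triangles as bounds where a fraction had 0 counts. The members called higher in the first panel lie at the right of the second as well and between 0.04 and 1.05 in the third. Cdh3, Cdhr1, Celsr1, Celsr2 and Fat1 are called lower in all 3 panels. Cdh1, Cdh18, Celsr3 and Pcdhgc4 also lie to the left in all 3, but are not called in each.

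Summed levels of most groups differed in the direction of their leading genes. Desmosomal genes summed to 184 ± 10.01 CPM in PDGFRa-only, 139 ± 6.43 in double-positive and 46.3 ± 4.51 CPM in PECAM1-only cells, and type II classical genes to 54.8 ± 10.1, 43.3 ± 4.49 and 8.58 ± 1.044 CPM. Non-clustered protocadherins summed to 56.3 ± 1.54, 40.9 ± 5.83 and 7.599 ± 0.989 CPM. Clustered protocadherins, led by the Pcdhgc4 row, went the other way from their 4 called beta genes, with 71.4 ± 3.87, 78.7 ± 8.89 and 82.4 ± 4.76 CPM. Fat, Dchs and Celsr genes summed to 185 ± 23.8, 389 ± 5.77 and 657 ± 84.8 CPM, and type I classical genes to 380 ± 34.4, 438 ± 50.3 and 491 ± 24.5 CPM (SD, n = 2). Each of these sums is led by 1 or 2 of the genes above.

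Genes of proteins that work with cadherins were called in both directions in 5 of 6 lists. The counts below stand beside 30.1% of all tested genes higher and 28.8% lower in PDGFRa-only than in PECAM1-only cells. Of 14 tested genes of catenins and adherens junction proteins (16 listed), 5 were higher and 6 lower in PDGFRa-only than in PECAM1-only cells. Among the 4 with the smallest p, Jup (plakoglobin) had a log2 fold change of 1.58 (160 ± 1.34 against 53.4 ± 7.66 CPM) and Lima1, which links catenin and actin, 1.49. Ctnnal1 was at -3.18, with a wide spread in PECAM1-only cells (16.7 ± 2.71 against 150 ± 71.9 CPM). The nectin gene Pvrl3 was at -1.45. Other nectin genes, named after their values were seen, did not all go this way. Pvrl2 was higher by 1.31 (124 ± 11.8 against 49.9 ± 2.19 CPM). Pvrl4, near the floor, was at -2.61 (0.302 ± 0.427 against 2.28 ± 0.547 CPM), and Pvrl1 did not pass (-0.06). The beta-catenin gene Ctnnb1, with 489 ± 53.7 against 566 ± 12.2 CPM, did not pass (-0.21, adjusted p = 0.252), and Ctnna1 and Ctnnd1, named after their values were seen, were higher by 0.42 and 0.94. Lower, and likewise named afterwards, were Ctnnd2 (-4.18), Mllt4 (-1.39, 157 ± 40.5 against 414 ± 23.6 CPM) and Pard3 (-0.47). Ctnnd2 was low, with 0.188 ± 0.0519 against 3.65 ± 0.832 CPM. Of 8 tested desmosomal plaque genes (9 listed, Jup among them), 2 were higher and 4 lower. Pkp2, the plakophilin of simple epithelia, had 3.84 ± 0.344 against 56.6 ± 0.627 CPM (-3.86), and Perp, a desmosomal membrane protein, 0.790 ± 0.165 against 30.9 ± 0.407 CPM (-5.22), while the plaque gene Pkp4 was at -0.76. Dsp, the desmoplakin gene, was lower by a log2 fold change of -0.54. Pkp3, another plakophilin gene, was higher by 1.36 (4.70 ± 0.660 against 1.79 ± 0.760 CPM). Thus Dsg2, Dsc2, Jup and Pkp3 were higher in the fraction in which Pkp2, Pkp4, Perp and Dsp were lower.

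Repressors of E-cadherin went in opposite directions. Snai1 had 47.6 ± 13.9 CPM in PDGFRa-only, 24.2 ± 5.90 in double-positive and 0.297 ± 0.198 CPM in PECAM1-only cells (log2 fold change 7.20, SE 0.43, adjusted p = 9.57e-12 between the single-positive fractions). Its PECAM1-only level lay near the floor of 3 counts over that fraction (0.226 CPM), so the size of this difference is uncertain. Zeb1 had 8.34 ± 1.54, 37.2 ± 1.63 and 81.5 ± 0.200 CPM (-3.31, adjusted p = 3.11e-11), Zeb2 2.18 ± 0.0919, 12.1 ± 6.72 and 14.9 ± 1.57 CPM (-2.77, adjusted p = 3.65e-06), and Tcf3 was at -0.61. Of 8 listed, 5 were tested, 1 higher and 3 lower, beside 30.1% and 28.8% of all genes. Cdh1 stood at -0.53 in the same comparison.

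Against the same 30.1% higher and 28.8% lower of all genes, of 11 genes of planar polarity and Fat-Dchs partners, 3 were higher (Prickle2 at 4.88, Prickle1 at 2.42 and Vangl1 at 1.35) and 6 lower, among them Ankrd6 (-3.27) and Ptk7 (-2.74). Of 13 regulators of the protocadherin clusters, 8 were lower, among them Rad21 (-0.96), Ctcf (-0.94), Setdb1 (-0.73) and Smc3 (-0.92), and 1, Dnmt3b, was higher (0.52). Of 6 genes of the proteases that cut cadherins at the membrane and of their complexes, 4 were higher in both PDGFRa-positive fractions, beside 30.1% of all genes in PDGFRa-only and 21.8% in double-positive cells, among them Adam15 (4.03 in PDGFRa-only and 3.19 in double-positive cells against PECAM1-only cells), Adam10, the main protease for E-cadherin (2.50 and 2.13), and Ncstn, a subunit of gamma-secretase that does not itself cut (1.30 and 0.95).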

How the data were processed

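RNA sequencing of 6 libraries was used, 2 for each of 3 sorted fractions. The values are raw counts per Ensembl gene, deposited by the authors with no normalization, per the file headers. Per the submitters' processing notes, the build was GRCm38 and the tools included HTSeq 0.5.4p3, TopHat2 2.0.8b, Bowtie2 2.1.0 and cutadapt 1.2.1, with no role or order; the annotation release and strand setting are not given in the sources used here. A further deposited table of RPKM values was not used, since genes with a count of 0 carry a value above 0 there. Positions and exon lengths came from GENCODE M21 (GRCm38), to which 80 of 81 members matched by identifier.

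Counts were filtered with filterByExpr (minimum count 10), scaled by TMM and fitted over all 6 libraries with edgeR 4.0.16 (R 4.3.3; robust quasi-likelihood, 1 mean per fraction, 3 residual degrees of freedom, two-sided, Benjamini-Hochberg over 13909 genes, threshold 0.05), after a test on simulated data. The SE is the log2 fold change divided by the root of the F statistic. Values by library are given for members of at least 10 CPM on average and for the 4 largest fitted rises and falls of each comparison, and for other tested members. Of each partner list up to 4 genes with the smallest p are named, and others where said or where 5 or fewer moved; 1 gene of these lists is not reported here. Alternatives were DESeq2 1.42.0, other scalings and filters, a fit of 2 fractions, a replicate block and leaving out each library. Figures used matplotlib 3.10.9 (Python 3.11.15). Members and lists were chosen with earlier results of these data known.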

Additional observations from a re-analysis of the deposited data

How the results depend on the processing

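Of 42 calls of single members over the 3 comparisons, 31 held in every alternative that gave a value and 11 were lost in at least 1; no called value changed sign. With a minimum count of 30, which left 14 members, 6 were higher in PDGFRa-only than in PECAM1-only cells in place of 11, and 6 higher in double-positive than in PECAM1-only cells in place of 10. The 1 member higher in PDGFRa-only than in double-positive cells (Pcdh19, with 5 members at an unadjusted p below 0.05 by edgeR) became 0 with DESeq2 (2 at an unadjusted p below 0.05) and without double-positive replicate 1 or 2 (1 unadjusted each). Leaving out 1 library at a time gave 10 to 11 higher and 6 to 8 lower members (in place of 9) between the single-positive fractions, 9 to 10 higher and 4 to 6 lower between double-positive and PECAM1-only, and 0 to 1 higher and 4 to 6 lower between PDGFRa-only and double-positive. A fraction with 1 library left is assumed to vary like the others. Library-size scaling moved the median log2 fold change of all genes to -0.28, and upper-quartile scaling to -0.20, between the single-positive fractions, and neither moved the counts of 11 and 9.

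The labels do not say what the replicate numbers share. With a replicate block the counts were 11 and 9, 10 and 6, and 1 and 5, as without it. Across genes, the differences between replicates 1 and 2 correlated between fractions with r = 0.132, -0.0289 and 0.183, so the numbers were not taken to pair the libraries; genes are not independent replicates. Members with few counts, above all the beta protocadherins, are limited by depth.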

Other observations

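Members below the filter on low counts held some that lay in 1 kind of fraction. Cdh9, a type II cadherin of neurons, had 13 and 3 counts in the PECAM1-only, 4 and 2 in the double-positive and 0 in the PDGFRa-only libraries, and Pcdhb17 had 2 and 8 counts in the PDGFRa-only, 1 and 1 in the double-positive and 0 in the PECAM1-only libraries. Without a filter, over 24748 genes, edgeR called Cdh9 lower (adjusted p = 0.00118) and Pcdhb17 higher (adjusted p = 0.00641) in PDGFRa-only than in PECAM1-only cells; both are named after their values were seen. Cdh10, next in kind to Cdh9, had 3 and 4 counts in the PECAM1-only, 1 and 3 in the double-positive and 0 in the PDGFRa-only libraries. The stereocilia cadherin gene Cdh23 had the most counts of the members that were not tested, 36, of which 12 and 7 were in PECAM1-only libraries. Pcdh18 had 13 counts, 9 of them in double-positive replicate 2.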
